A study of Caenorhabditis elegans with 6 samples.

Results

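The genes described here are cuticlins and other zona pellucida (ZP) domain genes of *Caenorhabditis elegans*. They were chosen by name: every gene of the count table whose symbol is cut or cutl followed by a number, together with noah-1, noah-2, dyf-7, let-653, fbn-1 and dpy-1. The rule found 41 genes among 46748 features, 6 of them named cut, 29 named cutl (for cuticlin-like) and 6 with other names. All 41 are annotated as protein-coding. RNA was sequenced from whole hermaphrodites of strain N2, the standard laboratory strain, labelled as aged 5 days. There were 6 libraries, 3 labelled with the gene Y6B3B.9 as their perturbation and 3 labelled L4440. In feeding RNA interference, L4440 is the usual name of the plasmid without an insert. The labels give neither the direction of the perturbation nor the event from which the 5 days are counted, and they do not say whether the 3 libraries of a label came from separate cultures, so the p-values measure the spread between these libraries, which may be technical.

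The ZP domain is known as a module through which secreted or membrane-anchored proteins assemble into filaments outside the cell. In nematodes such proteins are laid down on the apical face of epithelia: in the precuticle that precedes each cuticle, in the linings of tubes, around sensory endings and in the alae, the lengthwise ridges over the seam cells. Cuticlins were first known as the part of the cuticle that stays insoluble when the collagens are extracted. These genes have been studied mainly in embryos and in larvae that molt, whereas adult worms do not molt.

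The 6 libraries held between 23103541 and 32012257 counted reads, and the smallest was Y6B3B.9 replicate 3. Y6B3B.9 itself stood at 35.8 ± 3.58 CPM (SD, n = 3) in the libraries labelled with its name and at 22.8 ± 0.387 CPM (SD, n = 3) in those labelled L4440, where CPM is the read count relative to the TMM-scaled library size. It was thus higher, not lower, under its own label (log2 change 0.65, SE 0.0742, edgeR adjusted p = 1.26e-06). In an exact permutation test (two-sided) p was 0.1, and a design of 3 against 3 libraries can reach no smaller value. Below, "rose" and "higher" mean higher in the libraries labelled Y6B3B.9, and log2 changes are given in that direction. Most of the transcriptome was called. At an adjusted p of 0.05 in edgeR's quasi-likelihood test, 84.1% of the 14265 genes that could be tested differed, 46.4% higher and 37.7% lower, with a median log2 change of 0.22 over all of them. This split moved with the processing: 6623 genes were higher and 5380 lower, against 8204 and 3973 with library totals as scaling, and 5136 and 6461 once gene length was corrected for.

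Reads of the cuticlin and ZP genes were 4.47 times as abundant in CPM under the label Y6B3B.9. Their summed level was 359, 334 and 278 CPM under the label Y6B3B.9 and 71.1, 66.5 and 79.8 CPM under L4440. The groups did not overlap, and the lowest Y6B3B.9 library stood well above the highest L4440 library. Unscaled, the 41 genes took 0.0399%, 0.0369% and 0.0306% of all counted reads under the label Y6B3B.9 and 0.00645%, 0.00595% and 0.00726% under the label L4440. In bulk RNA of whole worms, a change in the number of cells of a type and a change in RNA per cell cannot be told apart.

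Of the 41 genes, 33 had enough reads to be tested. Among these, 32 rose and 0 fell at an adjusted p of 0.05 in edgeR, against 46.4% and 37.7% of all tested genes in the same directions. cut-3 was the gene not called, and its unadjusted p was 0.291. At least 2-fold higher were 24 of the 33 (23.6% of all tested genes), at least 4-fold 16 (4.72%) and at least 8-fold 3 (1.36%). The median log2 change of the 33 genes was 1.89, with quartiles at 0.96 and 2.47. Over all tested genes the quartiles were -0.54 and 0.96. No overlap between the libraries of the labels was seen in 32 of the 33, all of them higher, whereas 47.1% of all tested genes were separated in that direction. A gene that passed the filter on low counts only through the label in which it is high had to differ. The filter required 0.351 CPM in 3 libraries, and 24 of the 33 genes reached this in all 3 libraries labelled L4440. Of these 24 genes, 23 rose. The other 9 passed only because of the label Y6B3B.9, and cutl-8 and cutl-28, both at least 8-fold higher, are among them. The fold counts and the median above include these 9 genes, so the filter favoured them in part. Without the filter, 32 of 41 rose and 0 fell (edgeR adjusted p over 23398 genes). In that fit 6931 of the 23398 genes were higher and 5840 lower. The 32 genes that rose in it were not the same as the 32 of the main fit, since cutl-12 was not called without the filter. Over all 41 the mean CPM was higher under the label Y6B3B.9 for 38, a count for which no share over all features was computed.

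**Figure D1:**
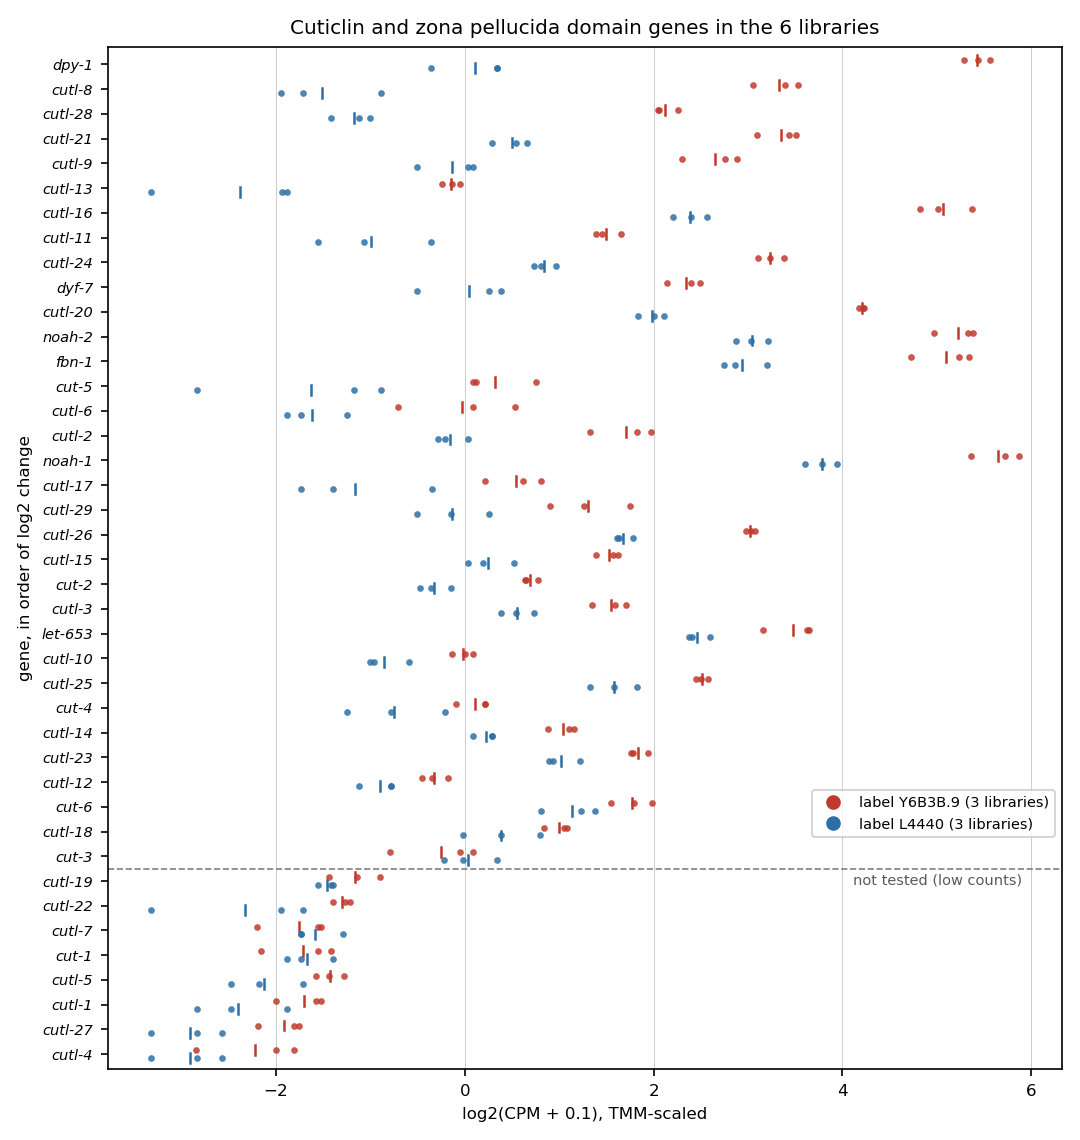
Level of each of the 41 genes in each library, as log2(CPM + 0.1) on the horizontal axis, with the label Y6B3B.9 in red and L4440 in blue. Points are libraries and short bars are means of the 3 libraries. Genes are in order of log2 change, and the 8 genes under the dashed line were not tested. In 32 of the 33 tested genes the red points lie to the right of all blue points, and in cut-3 they overlap.

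The matrix proteins best known from the embryonic epidermis and from tubes were among the most abundant of the 41 genes. noah-1 and noah-2 encode ZP proteins of the sheath that holds the embryo in shape as it elongates, and they are related to NompA of *Drosophila*. noah-1 (chromosome I, 5874416 to 5878958 in build WBcel235) stood at 58.2, 52.6 and 40.9 CPM under the label Y6B3B.9 and at 13.7, 12.1 and 15.3 CPM under L4440. All 3 libraries of the first label lay above the highest of the second (log2 change 1.89, SE 0.130, edgeR adjusted p = 1.63e-07). noah-2 (chromosome IV, 14091254 to 14096626) stood at 41.6, 40.2 and 31.1 CPM against 8.09, 7.23 and 9.17 CPM, again without overlap (log2 change 2.20, SE 0.117, edgeR adjusted p = 1.05e-09).

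The ratio of noah-1 to noah-2 reads separated the labels as well. It was 1.4, 1.31 and 1.32 under the label Y6B3B.9 and 1.69, 1.67 and 1.67 under L4440. This ratio does not depend on how libraries are scaled, but its shift depends on correction for gene length. With the trend with gene length removed, the log2 changes were 2.10 for noah-1 and 2.26 for noah-2, closer together than in the main fit. The ratios and levels per length given here are without that correction. Per gene length, noah-1 stood at 3.61 ± 0.425 CPM per kb (SD, n = 3) and noah-2 at 3.18 ± 0.379 CPM per kb under the label L4440. Under the label Y6B3B.9 the means were 13.3 ± 2.32 and 14.7 ± 2.22 CPM per kb. Within each library, the level of noah-1 per length was 1.14, 1.13 and 1.13 times that of noah-2 under L4440 and 0.945, 0.885 and 0.890 times under the label Y6B3B.9, so noah-1 was the higher of the pair in all 3 libraries labelled L4440 and noah-2 in all 3 labelled Y6B3B.9.

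fbn-1 encodes a fibrillin-related ZP protein with a part in embryonic shape and in molting. Its level was 40.3, 37.4 and 26.4 CPM under the label Y6B3B.9 and 6.61, 7.15 and 9.07 CPM under L4440 (log2 change 2.19, SE 0.178, edgeR adjusted p = 2.62e-06). The spread among the libraries labelled Y6B3B.9 was wide, with replicate 3 lowest, but the labels did not overlap. fbn-1 is the longest of the 41 genes, with 9554 annotated exon bases, so per length it lay lower, at 3.63 ± 0.769 against 0.796 ± 0.135 CPM per kb (SD, n = 3 each).

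let-653, which encodes a mucin-like ZP protein that shapes the lumen of the excretory duct and of the vulva, moved less. It stood at 12.4, 12.2 and 8.81 CPM against 5.97, 5.10 and 5.22 CPM (log2 change 1.05, SE 0.134, edgeR adjusted p = 4.22e-06). Its reads per read of noah-1 were 0.213, 0.233 and 0.215 under the label Y6B3B.9 and 0.437, 0.422 and 0.341 under L4440, without overlap. dyf-7 encodes a ZP protein that anchors the tips of sensory dendrites while the embryonic neurons migrate away. Its level was 5.52, 5.16 and 4.33 CPM against 1.2, 0.603 and 1.1 CPM (log2 change 2.36, SE 0.201, edgeR adjusted p = 4.74e-08).

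dpy-1 had the largest log2 change of the 33 tested genes. Its mutants are dumpy, which means short and stout. Its reads numbered 1568, 1386 and 988 under the label Y6B3B.9 and 17, 29 and 34 under L4440, and it lies at chromosome III, 2034988 to 2048007, with no annotated exon shared with another gene. In CPM this was 43.0 ± 4.08 against 1.00 ± 0.281 (SD over 3 libraries each), a 42.8-fold ratio of means. The 2 labels lay far apart (log2 change 5.40, SE 0.136, edgeR adjusted p = 7.27e-13). dpy-1 ranked 5th per gene length under the label Y6B3B.9 at 9.90 CPM per kb and 27th of 41 under L4440 at 0.231 CPM per kb. Its log2 change was above that of 99.8% of the genes tested.

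The 6 genes named cut were low in every library. The median log2 change of the 5 that were tested was 0.91, beside 1.89 for all 33 tested genes of the set. cut-5, with a known part in the alae of the first larval stage and of the dauer larva, rose most. It took 32, 51 and 25 reads under the label Y6B3B.9 and 1, 11 and 10 under L4440 (log2 change 2.07, SE 0.421, edgeR adjusted p = 4.12e-04). L4440 replicate 1, with a single read, lay far below the other 2 libraries of its label, and without it the log2 change was 1.58. cut-2, whose protein is known to be cross-linked through its tyrosines, took 49, 47 and 41 reads against 17, 20 and 18 (log2 change 1.11, SE 0.212, edgeR adjusted p = 2.16e-04).

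cut-4 took 28, 34 and 27 reads under the label Y6B3B.9 and 8, 19 and 14 under L4440 (log2 change 0.91, SE 0.292, edgeR adjusted p = 0.00975). It was called with the same sign in 11 of its 13 alternative fits. The fit without L4440 replicate 1, where the log2 change was 0.66, was among those that lost the call. cut-6, needed for alae and body width in the dauer larva, was at 2.82, 3.36 and 3.85 CPM against 2.24, 1.65 and 2.51 CPM. Its groups did not overlap, but the lowest Y6B3B.9 library lay only a little above the highest L4440 library (log2 change 0.63, SE 0.180, edgeR adjusted p = 0.00483).

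cut-3 was tested and not called, and cut-1 was not tested. cut-3, needed for alae in the first larval stage, took 16, 31 and 22 reads under the label Y6B3B.9 and 19, 22 and 34 under L4440. The groups overlapped (log2 change -0.31, SE 0.286, edgeR adjusted p = 0.313), and the 95% interval of the log2 change ran from -0.87 to 0.25. With the trend with gene length removed, cut-3 was called lower (log2 change -0.65). cut-1, known as a cuticlin of the dauer alae, took 8, 4 and 7 reads against 7, 5 and 5 and was too low to be tested.

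The most abundant cutl genes per gene length were cutl-16 and cutl-20, at the level of the noah genes. cutl-16 stood at 41.2, 32.1 and 28.2 CPM under the label Y6B3B.9 and at 5.17, 4.5 and 5.81 CPM under L4440 (log2 change 2.71, SE 0.146, edgeR adjusted p = 3.62e-09). Per gene length it had the highest mean of the 41 genes under the first label, 18.2 ± 3.58 CPM per kb (SD, n = 3), and the 4th highest under the second, 2.77 ± 0.35 CPM per kb. cutl-20 stood at 18.7, 18.5 and 18 CPM against 4.20, 3.46 and 3.92 CPM (log2 change 2.25, SE 0.0974, edgeR adjusted p = 4.87e-11). Its SD over 3 libraries was 0.352 CPM under the first label and 0.378 CPM under the second. It shares 221 exon bases, 17.3% of its own, with shc-1 on the same strand, which was lower under the label Y6B3B.9 (605 against 832 reads in 3 libraries each).

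Of the other cutl genes, cutl-26, cutl-25, cutl-21 and cutl-24 had the highest mean level per length. cutl-21 rose from 1.36, 1.13 and 1.48 CPM under L4440 to 10.7, 11.3 and 8.46 CPM under the label Y6B3B.9 (log2 change 2.94, SE 0.159, edgeR adjusted p = 3.82e-10). cutl-24 was at 1.56, 1.65 and 1.85 CPM under L4440 and at 10.3, 9.29 and 8.50 CPM under the other label (log2 change 2.47, SE 0.135, edgeR adjusted p = 4.39e-10). Both therefore separated widely between the labels. cutl-26 rose less, from 3.00, 3.34 and 2.95 to 7.80, 8.05 and 8.30 CPM (log2 change 1.38, SE 0.114, edgeR adjusted p = 3.64e-08). For cutl-25 the values were 2.4, 2.89 and 3.44 and 5.37, 5.87 and 5.55 CPM (log2 change 0.93, SE 0.141, edgeR adjusted p = 2.24e-05). The 2 genes of lesser change were the higher ones under the label L4440, at 1.88 and 2.23 CPM per kb against 0.656 for cutl-21 and 0.835 for cutl-24, and all 4 lay between 4.28 and 5.05 CPM per kb under the label Y6B3B.9.

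**Figure D2:**
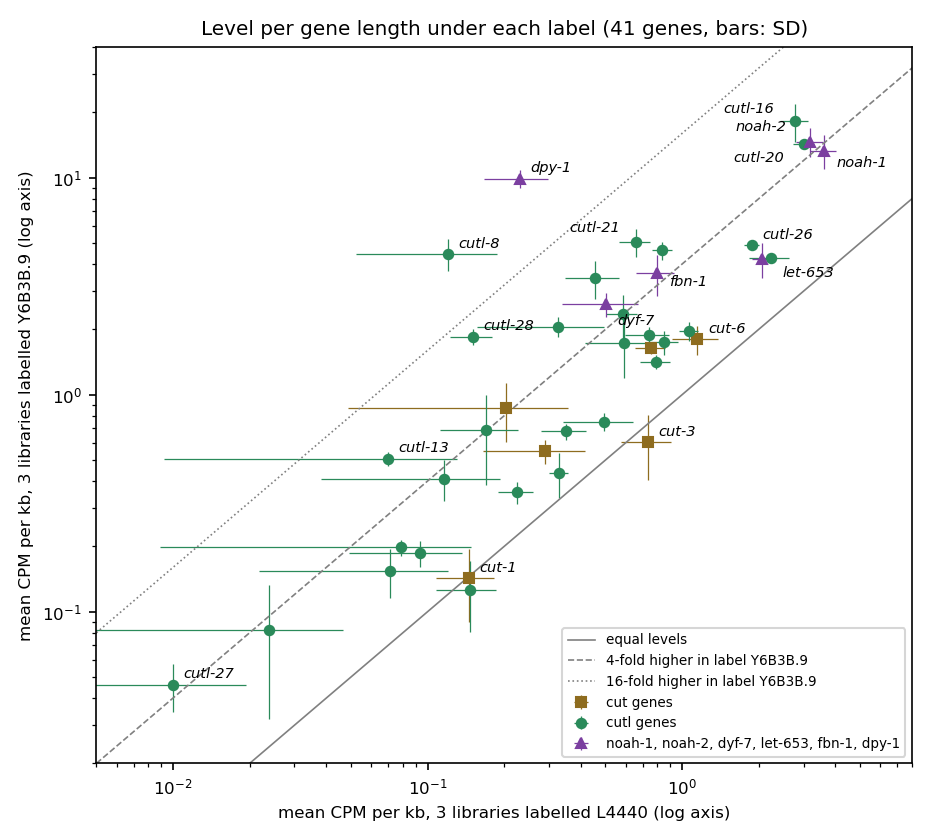
Mean level per gene length of the 41 genes under the label L4440 (horizontal, log axis) and under the label Y6B3B.9 (vertical, log axis), in CPM per kb of annotated exon, with bars of SD over 3 libraries, cut short where they would reach 0. Lines mark equal levels and levels 4-fold and 16-fold higher under the label Y6B3B.9. dpy-1 and cutl-8 lie above the 16-fold line, and cut-1, cut-3 and cutl-7 lie below the line of equal levels.

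cutl-8 and cutl-28 were low under the label L4440. cutl-8 had 346, 369 and 208 reads under the label Y6B3B.9 and 4, 11 and 6 under L4440 (log2 change 5.22, SE 0.246, edgeR adjusted p = 1.04e-10), and its ratio of mean CPM was 37.1. It shares 42 exon bases with T01G9.2 on the other strand, which took 8804 reads under the label Y6B3B.9 and 7345 under L4440. As strand is lost in this kind of library, reads from those bases cannot be told apart. T01G9.2 was not called (log2 change 0.06). cutl-28 took 156, 130 and 103 reads against 10, 9 and 8 (log2 change 3.62, SE 0.210, edgeR adjusted p = 7.32e-10), a ratio of mean CPM of 12.3. It shares no exon base with another annotated gene.

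Among the other strong rises, cutl-9 took 243, 214 and 123 reads against 23, 15 and 28 (log2 change 2.91, SE 0.210, edgeR adjusted p = 7.52e-09). cutl-11 took 102, 85 and 64 reads against 17, 6 and 11 (log2 change 2.66, SE 0.260, edgeR adjusted p = 2.26e-07). Both were separated without overlap, and cutl-11 shares 9 exon bases with T04F8.8 on the other strand, which had a log2 change of 0.80. cutl-13 took 27, 24 and 22 reads against 0, 4 and 5 (log2 change 2.77, SE 0.453, edgeR adjusted p = 4.97e-05), and cutl-6 took 45, 31 and 13 against 8, 5 and 5 (log2 change 2.07, SE 0.406, edgeR adjusted p = 2.67e-04). The last 2 genes passed the filter through the label Y6B3B.9 alone, with 0 libraries labelled L4440 at its limit, so their calls had to follow their high label. Only 1 library labelled L4440 reached the limit for cutl-8, cutl-28, cutl-11, cut-5 and cutl-17, and 2 did for cut-4 and cutl-12. These genes too passed only because of the label Y6B3B.9, so the filter favoured their direction.

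The other 10 tested cutl genes rose by less, with log2 changes between 0.62 and 2.01. cutl-2 (2.01), cutl-17 (1.78), cutl-29 (1.55), cutl-15 (1.32) and cutl-3 (1.06) were at least 2-fold higher. cutl-10 (0.96), cutl-14 (0.88), cutl-23 (0.83), cutl-12 (0.64) and cutl-18 (0.62) rose by under 2-fold. Of these, cutl-12 and cutl-18 were the closest to the threshold. cutl-12 took 21, 22 and 20 reads against 12, 9 and 14 (edgeR adjusted p = 0.0402, range 0.00540 to 0.310 over its alternatives), and its call was lost under 9 of 13 alternatives, the removal of any library but Y6B3B.9 replicate 1 among them. cutl-18 took 66, 65 and 43 reads against 41, 22 and 35 (edgeR adjusted p = 0.0153, range 0.00144 to 0.140). It was not called under 4 of 14 alternatives, which were DESeq2's size factors (log2 change 0.47), the DESeq2 Wald test (0.46), and the fits without L4440 replicate 2 (0.41) and without Y6B3B.9 replicate 2 (0.57). cutl-15, cutl-17, cutl-18 and cutl-23 share between 25 and 84 exon bases each with a gene on the other strand, and cutl-29 shares 94 with M60.12 (1 read). Of the genes described above, fbn-1 shares 45 such bases with upp-1 (26032 reads) and cutl-6 shares 14 with nuo-6 (14311 reads). cut-3 shares 9 with evl-20 (4405 reads) and cutl-13 shares 68 with W04C9.9 (4 reads).

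Besides cut-1, 7 cutl genes had too few reads for a test. Summed over 3 libraries each, cutl-19 took 32 reads under the label Y6B3B.9 and 21 under L4440, cutl-22 28 and 10, cutl-5 25 and 11, and cutl-1 19 and 8. The lowest were cutl-7 with 19 and 19 reads, cutl-27 with 15 and 3, and cutl-4 with 12 and 3. The libraries of the labels did not overlap for 3 of these 7, cutl-22, cutl-5 and cutl-27. Of all tested genes 47.1% were separated in the same direction, but those had passed the filter on low counts. That share is therefore not a like background for genes with so few reads. cutl-5 shares 50 exon bases with F10E7.6, a gene of 5922 reads on the other strand.

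**Figure D3:**
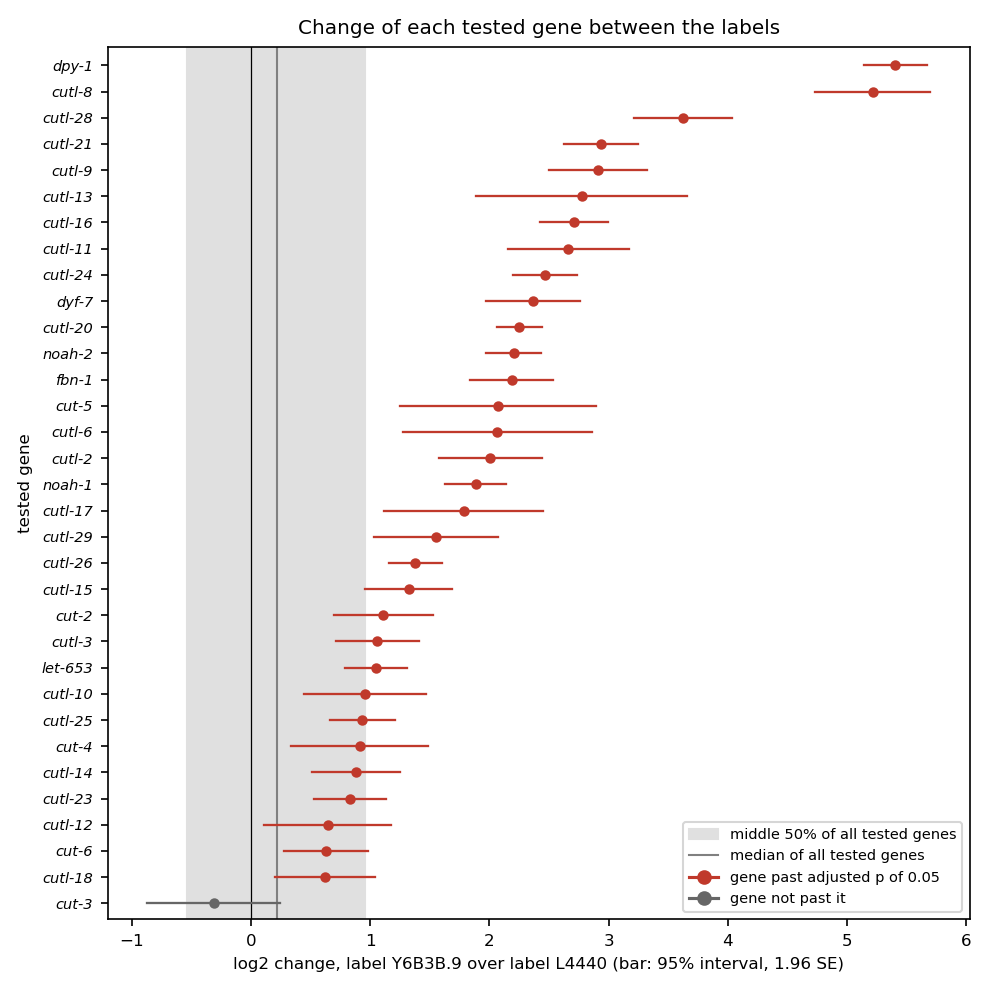
Log2 change of the 33 tested genes between the labels, with bars of 95% intervals. The grey band holds the middle 50% of all 14265 tested genes and the grey line is their median, 0.22. The points run from -0.31 (cut-3) to 5.40 (dpy-1), and 24 of 33 lie to the right of the band.

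The rise was thus uneven, and the make-up of the set differed between the labels. The 5 genes with the most reads, noah-1, noah-2, dpy-1, fbn-1 and cutl-16, held 63.7%, 61.4% and 59.5% of the set's reads under the label Y6B3B.9 and 48.1%, 48.3% and 50.8% under L4440. dpy-1 alone went from between 0.0499 and 0.0963 reads per read of noah-1 under L4440 to between 0.808 and 0.949 under the other label. In contrast, cut-6 went from between 0.136 and 0.164 to between 0.0484 and 0.0941, a lower ratio to noah-1 although it rose in CPM. As a description across the 33 tested genes, which share the same 6 libraries, the log2 change correlated with the log2 mean level per length at r = 0.34 over all 6 libraries and at r = -0.35 under the label L4440, and with log2 gene length at r = 0.33. The levels under both labels enter the change itself, so the first 2 values share data with it.

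The 41 genes lie on all 6 chromosomes, with 5 (chromosome V) to 9 (chromosome II) on each. Called genes were found on every chromosome, but 84.1% of all tested genes were called. On chromosome V only 2 genes were tested. Only 3 pairs lie within 100000 bases of each other, which are cutl-27 and let-653 (1479 bases apart on chromosome IV), cutl-1 and cut-2 (8835 bases, chromosome V) and cutl-28 and cutl-26 (10359 bases, chromosome IV). In the last of these pairs the log2 changes were 3.62 and 1.38, with 95% intervals from 3.21 to 4.03 and from 1.15 to 1.601.

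Libraries of one label also differed among themselves in these genes. Among the libraries labelled Y6B3B.9, replicate 3 was the lowest for 19 of the 33 tested genes, compared with 41.1% of all tested genes. Its median log2 deviation from the label's mean, on log2(CPM + 0.1), was -0.14 over the 33 genes and -0.01 over all. Among the libraries labelled L4440, replicate 3 was the highest for 18 of the 33, compared with 32.6% of all tested genes, with a median deviation of 0.17. These spreads were small beside the difference between the labels. The median log2 change of the genes tested was 2.01 without Y6B3B.9 replicate 3 and 1.92 without L4440 replicate 3.

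Other genes of the apical matrix were read from the same fit, in which 46.4% of all tested genes were higher and 37.7% lower. Of 19 collagens that form the furrows, struts and body shape of the cuticle, all 19 were tested and all 19 rose, and the list's median was 2.71 on the log2 scale. dpy-14 (2.45), sqt-3 (1.97) and dpy-17 (1.81) had the smallest p. Summed over the list they stood at 121 to 145 CPM under the label Y6B3B.9 and at 30.3 to 31.1 CPM under L4440, a ratio of means of 4.45 beside 4.47 for the cuticlin and ZP genes. Among 11 other genes of the precuticle and apical matrix, 10 rose, including the lipocalin gene lpr-3 (3.29) and the Patched-related gene ptr-4 (2.95), and 1 fell. That gene was egg-6 (-1.35), which encodes a leucine-rich repeat protein that acts with the precuticle of the excretory duct. The median of this list was 1.49, but its summed level was lower under the label Y6B3B.9, at 515 to 575 against 976 to 1016 CPM. egg-6 holds most of that sum, with means of 362 and 920.4 CPM.

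Enzymes that mature the matrix had a smaller median change. Of 15 genes, 10 rose and 2 fell, beside 46.4% and 37.7% of all tested genes, and the median log2 change was 0.42. The counts depended on scaling, with 7 higher and 5 lower under DESeq2's size factors and 12 higher and 0 lower under library totals. The prolyl hydroxylase subunit gene phy-2 (0.90), the gene dpy-5 (2.41), which encodes a proprotein convertase, and the peroxidase gene skpo-1 (0.56) had the smallest p. bli-4, which encodes a furin-like convertase, was at -0.25 and the disulfide isomerase gene pdi-6 at -0.24. Both were above 0 with library totals as scaling (0.04 and 0.05), and bli-4 was also above 0 with the trend with gene length removed (0.12), so the direction of both changes with the processing.

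Of 16 tested transcription factors of the epidermis and of molting, 8 were higher and 7 lower, which is close to the 46.4% and 37.7% of all tested genes. The list's median was 0.29, while its summed level was lower under the label Y6B3B.9, at 357 to 398 against 558 to 589 CPM. The smallest p belonged to genes that fell, namely myrf-1 (-1.53), a membrane-bound regulator of larval development, nhr-23 (-1.08), a nuclear receptor that drives molting, and egl-18 (-0.81), a GATA factor of seam cells. Of the genes that rose, nhr-25 (1.57), a nuclear receptor of epidermis and molting, the seam cell homeobox gene ceh-16 (1.86) and blmp-1 (0.86), a zinc finger regulator of molting genes, were chosen for mention after their values were seen. Thus egl-18 fell and ceh-16 rose, and both are known from seam cells.

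**Figure D4:**
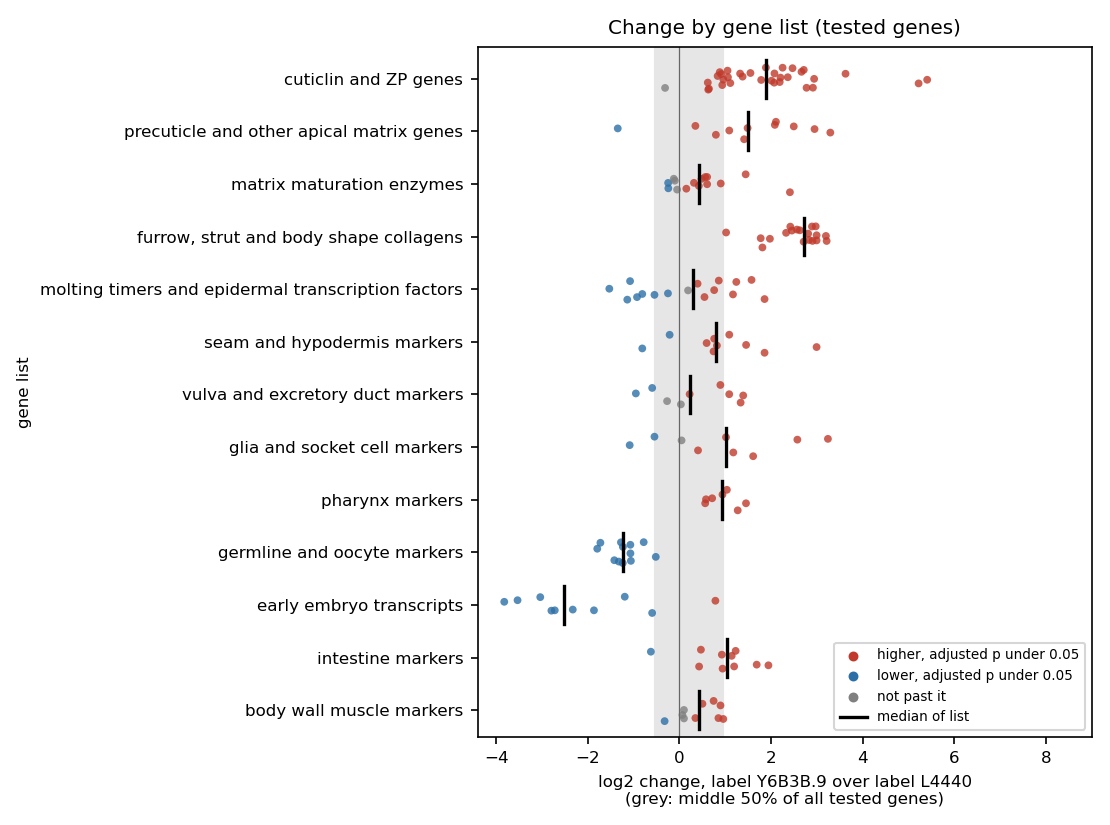
Log2 change of the tested genes of each list, with one point per gene and a black bar at the list's median. Red points are higher and blue points lower at an adjusted p of 0.05, and the grey band holds the middle 50% of all tested genes. Of the cuticlin and ZP genes 24 of 33 lie to the right of the band, and of the collagens 19 of 19.

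Markers of tissues were read against the same background, 46.4% of all tested genes higher and 37.7% lower. Of 12 germline and oocyte markers, all 12 fell, with a summed level of 4499.5 to 4646 CPM under the label Y6B3B.9 and 10158 to 10634 CPM under L4440. Of 10 tested early embryo transcripts, 9 fell and 1 rose, and the list of 12 summed to 23 to 28.8 against 117 to 175 CPM. The 6 lists of somatic tissues had medians from 0.22 to 1.04, beside 1.89 for the cuticlin and ZP genes. Seam and hypodermis markers rose in 8 of 10 tested genes and fell in 2 (median 0.79), but their summed level of 177 to 193 CPM overlapped the 174 to 179.9 CPM under L4440. This list is not separate from those above. It shares dpy-7 with the collagens, che-14 with the precuticle genes, and elt-3, egl-18 and ceh-16 with the transcription factors.

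Among markers of glia and socket cells, 6 of 9 rose and 2 fell (median 1.01, summed 162 to 175 against 209 to 222 CPM). One of these markers, lin-26, was also in the list of transcription factors. Of 9 markers of vulva and excretory duct, 5 rose and 2 fell, near the background share of higher genes (median 0.22, summed 82.2 to 90.0 against 100.5 to 105 CPM). In both of these lists the median was above 0 while the summed level was lower under the label Y6B3B.9. All 7 tested pharynx markers rose (median 0.94, summed 68.9 to 72.2 against 41.4 to 44.2 CPM). Intestine markers rose in 9 of 10 genes and fell in 1 (median 1.04, summed 56171 to 59435 against 38283 to 39668 CPM). Body wall muscle markers rose in 6 of 10 genes and fell in 1 (median 0.42, summed 1600.2 to 1766 against 1008 to 1232 CPM). No marker was at 0 in all 6 libraries, and hlh-27, phat-1 and nhr-73 were at 0 in at least 1 library. The part of tissue make-up in the rise of the cuticlin and ZP genes was not tested.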

How the data were processed

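RNA of whole N2 worms was sequenced in 6 libraries. Libraries were grouped by perturbation label. Replicate numbers follow the order of the sample records and pair nothing. Per the labels' protocols the libraries came from a TruSeq RNA kit (v2) without strand information. The submitters' processing notes name STAR 2.4.1d, featureCounts 1.4.6-p4, bcl2fastq 1.8.4 and build WBcel235. Their options are not given here.

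Every test rests on the read counts per gene that the authors deposited. The RPKM values the authors deposited divide by library totals recycled along the table (the gene length implied by counts and RPKM was constant within 0.1% for 4330 of 4330 genes with at least 1000 reads in every library under that reading, and for 0 with each library's own total). They served only as a second source of gene lengths. Symbols were matched by gene ID for 43693 of 46748 features. Positions, exons and gene lengths came from the Ensembl annotation of the same build. Of the genes listed for comparison, 3 were not matched. No sequence is printed.

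The test was the quasi-likelihood test of edgeR 4.0.16 under R 4.3.3 (filterByExpr, TMM, glmQLFit and glmQLFTest with robust=TRUE), with Benjamini-Hochberg adjustment over 14265 genes and a threshold of 0.05. SEs come from the F statistic. Levels are CPM with TMM scaling. Library pairs of one label differed by more than sampling noise (chi-square per degree of freedom from 3.79 to 14.0). The 14 alternative fits were a floor of 1 CPM in 3 libraries or no filter, scaling by library totals or DESeq2's size factors, limma-voom (limma 3.58.1), DESeq2 1.42.0 (Wald test), robust=FALSE, gene length corrected for by a loess curve, and each library left out. Figures were drawn with matplotlib 3.10.9.

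The genes and lists were chosen with earlier results of these data known. Every tested gene of the set is named. Values in all libraries are given for the genes named cut or with other names, the 6 further genes with the highest mean CPM per kb and the 6 with the largest changes. Up to 3 genes with the smallest p, and every gene on a side of 3 or fewer, are named from each related list. From the transcription factors, nhr-25, ceh-16 and blmp-1 are named as well, outside this rule and chosen after their values were seen.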

Additional observations from a re-analysis of the deposited data

How the results depend on the processing

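The number of cuticlin and ZP genes that rose lay between 27 and 32 over the 14 alternatives, and the number that fell was 0 in each but one: with the trend with gene length removed, 1 gene fell, cut-3 (log2 change -0.65). Single genes kept direction and side of the threshold in 439 of 456 comparisons with the main fit. In the 16 where a call was lost, the gene was cut-4, cutl-10, cutl-12 or cutl-18. The median log2 change of the tested set was 1.73 with DESeq2's size factors, 2.18 with library totals, 1.45 without a filter, 2.10 with at least 1 CPM in 3 libraries, 1.73 in the DESeq2 Wald test and between 1.496 and 2.01 with a library left out. The 2 filters test other numbers of these genes (41 and 27), as do fits with a library left out (33 to 35). Over all tested genes these medians were 0.0659, 0.51, 0.44, 0.16, 0.0656 and between 0.21 and 0.26, and with the length trend removed it was -0.0727. DESeq2's size factors thus shifted the median of all genes by -0.15 and library totals by 0.29. With library totals 8204 genes rose and 3973 fell, with DESeq2's size factors 5884 and 5953. bli-4 was at 0.0431 and pdi-6 at 0.0470 with library totals, and bli-4 at 0.119 with the length trend removed. Among matrix maturation enzymes 5 fell with DESeq2's size factors, without a filter and in the DESeq2 Wald test, and 0 with library totals. The cause of these differences was not tested. No paired analysis was possible because the labels give the libraries no shared replicate numbers. Genes under about 10 reads per library are limited by depth.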
